A study of Homo sapiens with 8 samples.

Results

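The 9 chromatin regulators described here were taken from the 60234 genes of the deposited table. They are 6 subunits of the BAF (SWI/SNF) complexes (SMARCA4, SMARCA2, SMARCB1, SMARCC1, SMARCD3 and ARID1A), the NuRD subunits CHD4 and MTA2, and the BET protein BRD3. Each gene was taken by its symbol and stood on 1 row. All 9 passed the filter on low values, a mean of at least 1 CPM (the reads of a gene scaled to a common total of gene-assigned reads). The libraries came from Rh41, an established human alveolar rhabdomyosarcoma line positive for the PAX3-FOXO1 fusion. The 4 control libraries and the 4 siG9a libraries, in which G9a (EHMT2, a histone H3 lysine 9 methyltransferase) was knocked down, carry replicate numbers 1 to 4 in each group. The labels say only "control" for the first group, and the time of knockdown and whether replicates were separate cultures are not given in the sources used here. All 8 libraries come from this 1 line, so p-values measure only the spread between these samples, which may be technical.

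BAF complexes use the ATPase SMARCA4 (BRG1) or SMARCA2 (BRM) to slide or evict nucleosomes, and most other BAF subunits also come in alternative versions. NuRD joins the remodelling ATPase CHD4 to histone deacetylases, with MTA proteins as scaffold. BET proteins bind acetylated histone tails through bromodomains. In skeletal muscle, SMARCD3 (BAF60C) is known to work with MYOD1, the myogenic transcription factor. CHD4 is known as a regulator that PAX3-FOXO1-positive rhabdomyosarcoma cells depend on, and SMARCB1 is a tumour suppressor lost in rhabdoid tumours.

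In short, G9a knockdown moved none of the 9 genes past the test threshold. Over the 8 libraries the replicate number held 82.7 to 97.9% of the sum of squares for SMARCD3, SMARCC1, CHD4, ARID1A and SMARCA2. Without the replicate 3 libraries it held 66.5 to 90.8% for SMARCD3, SMARCC1 and CHD4. For ARID1A and SMARCA2 it then held 14.9 and 35.0%, against a median of 36.7% over all genes tested. SMARCA2 was lower in siG9a in 4 of 4 pairs of the same number and SMARCC1 was higher in 4 of 4, neither past the threshold. These are 2 of the 9 genes, and 30.2% of all genes tested went the same way in 4 of 4 pairs. SMARCD3, SMARCA2, ARID1A and BRD3 were lower, and SMARCC1 was higher, in both replicate 3 libraries than in any other library of their group. How many of all genes tested did the same was not counted. A replicate 3 difference of at least 1 log2 unit in the same direction in both groups held for SMARCD3 and SMARCA2, and for 12.9% of all genes tested. Outside the 9 genes, SMARCD2 and PHF10 of BAF rose, and BCL11B of BAF and MBD3 of NuRD fell, in a fit that takes the replicate number as a block. These 4 were 9.09% of the 44 BAF and NuRD genes tested, against 11.4% of all genes tested. In the same fit without the block 0 were called. Leaving out the replicate 3 libraries as well gave 1 call there, SMARCD2. PHF10 lost its call in 5 of the 8 fits with a block.

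Both replicate 3 libraries stood apart, so the log2 changes of the regulators are given with and without them. The summed level of 8 muscle lineage markers was 1590.2 to 1759 CPM in control replicates 1, 2 and 4 and 269 CPM in control replicate 3. In siG9a it was 885 to 1287 CPM and 227 CPM. The 7 muscle markers above the filter were each lower in replicate 3 of both groups, and MYF5 was at 0 in every library. For MYOG in siG9a this was only 1.14 CPM against 1.21 CPM in replicate 2, both below 3 reads. Between groups, 4 of those 7 (DES, CDH15, CHRNA1 and FGFR4) fell in siG9a with the replicate block and 0 passed without it; their part in the results below was not tested. The 4 neural markers summed to 186 to 2041 CPM in the other control libraries and 9606 CPM in replicate 3, and to 219 to 2950.0 and 8930.0 CPM in siG9a. In control and siG9a replicate 3, NEFM (8046 and 7625 CPM) and NEFL (1557 and 1302 CPM) made up nearly all of that sum. STMN2 was at most 2.46 CPM in any library. TUBB3 was not high in replicate 3, at 0 CPM in control and 1.14 CPM in siG9a, against up to 7.29 and 2.42 CPM in the other libraries. Fibroblast and stromal markers (6 genes) summed to 52.0 to 406 CPM, epithelial markers (4 genes) to 7.29 to 29.5 CPM and haematopoietic markers (2 genes) to 0 to 4.67 CPM. The stromal sum was also lowest in replicate 3 of both groups, at 118 CPM in control and 52.0 CPM in siG9a. Of the 6 stromal genes, 1 was lowest there in both groups. With the block 1 of 4 tested stromal, 1 of 3 epithelial and 0 of 3 neural markers were called, where 11.4% of all genes tested were. The endothelial marker CDH5 was at 0 in all 8. Depth was 1458825 to 1938665 reads per library, so that 3 reads, the floor for a gene at 0, correspond to 1.55 to 2.06 CPM. The targeted gene EHMT2, at 75.3 ± 15.0 CPM (SD, n = 4) in control, stood at 36.6 ± 16.2 CPM after knockdown, lower in 4 of 4 pairs. The siG9a level was 34.0, 51.6, 37.9 and 66.3% of control in replicates 1 to 4. The groups overlapped, with siG9a replicate 4 (58.5 CPM) above control replicate 1 (57.6 CPM). The limma adjusted p of EHMT2 was 0.191, and 4.72e-04 with the replicate block.

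Since SMARCD3 and ARID1A were the 2 regulators whose levels followed MYOD1 most closely, their promoters are shown with the E-box hexamers that basic helix-loop-helix factors such as MYOD1 bind. Promoter windows of RefSeq (GRCh38.p14, 250 bases before to 50 after each annotated start) were found for 8 of the 9 genes, 15 windows in all. SMARCC1 had no entry. Each window was searched on both strands for 3 E-box hexamers. The first was CAGCTG, which reads alike on both strands. Another was CAGGTG, which reads as CACCTG on the opposite strand. The last was CACGTG, again alike on both strands. No hexamer contains another. Of the 15 windows, 3 held a match, 1 each in SMARCD3, ARID1A and CHD4. The CHD4 match, CAGCTG, lies 42 bases after its start. The 250 bases before the start are printed 5′ to 3′ on the gene's strand, with the E-box in capitals. The SMARCD3 window, chr7:151276735-151276984 on the minus strand, belongs to the second of its 3 annotated starts and holds CACCTG at 47 bases before it. The ARID1A window, chr1:26695765-26696014 on the plus strand, holds CAGCTG at 170 bases before the start.
SMARCD3: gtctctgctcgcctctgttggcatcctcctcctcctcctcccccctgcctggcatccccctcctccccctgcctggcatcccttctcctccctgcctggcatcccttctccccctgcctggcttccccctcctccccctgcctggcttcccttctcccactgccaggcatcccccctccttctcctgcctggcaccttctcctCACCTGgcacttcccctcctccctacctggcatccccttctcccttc
ARID1A: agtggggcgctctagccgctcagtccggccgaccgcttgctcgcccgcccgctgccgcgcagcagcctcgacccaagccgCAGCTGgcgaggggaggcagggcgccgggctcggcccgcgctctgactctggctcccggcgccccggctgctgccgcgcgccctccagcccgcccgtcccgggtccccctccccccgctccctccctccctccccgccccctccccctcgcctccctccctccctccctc
The hexamer CAGCTG occurred in 17.9% of all 35116 windows of the table, CAGGTG in 20.6% and CACGTG in 7.26%, so matches of this kind are common. The share of all windows with any of the 3 is thus at least 20.6%, and 3 of 15 windows is not above that. A match is a run of letters and not a measured site. The 3′ end reads of these libraries do not tell which of the SMARCD3 starts was in use.

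In control cells the 9 regulators spanned a wide range of levels. QuantSeq counts transcript ends, so CPM can be set side by side between genes without a length. BRD3 had the highest control mean, 803 CPM, followed by CHD4 (700.4 CPM), SMARCA4 (687 CPM) and SMARCC1 (442 CPM). ARID1A (142 CPM), SMARCD3 (139 CPM) and SMARCA2 (129.9 CPM) formed a middle range, and SMARCB1 (68.8 CPM) and MTA2 (39.7 CPM) were lowest. Neighbours in this order had non-overlapping control ranges at 2 places only, SMARCC1 above ARID1A and SMARCB1 above MTA2. The control ranges of all other neighbours overlapped. Within single libraries SMARCA4 was above SMARCC1 in 8 of 8 and SMARCD3 above SMARCA2 in 7 of 8, while BRD3 was above CHD4 in 4 of 8 and CHD4 above SMARCA4 in 5 of 8. Reads per library ran from 58 (SMARCD3, control replicate 3) to 1663 (BRD3, control replicate 2), so counting error is smallest for BRD3, CHD4 and SMARCA4. By GENCODE release 29, 7 of the 9 genes have exons that overlap those of another gene on either strand (BRD3 with BRD3OS, SMARCB1 with DERL3, SMARCD3 with CHPF2, for example), and SMARCC1 and MTA2 do not. Whether the authors' counting used strand is not given in the sources used here, so for the 6 with an antisense partner reads of that partner cannot be told apart.

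**Figure D1:**
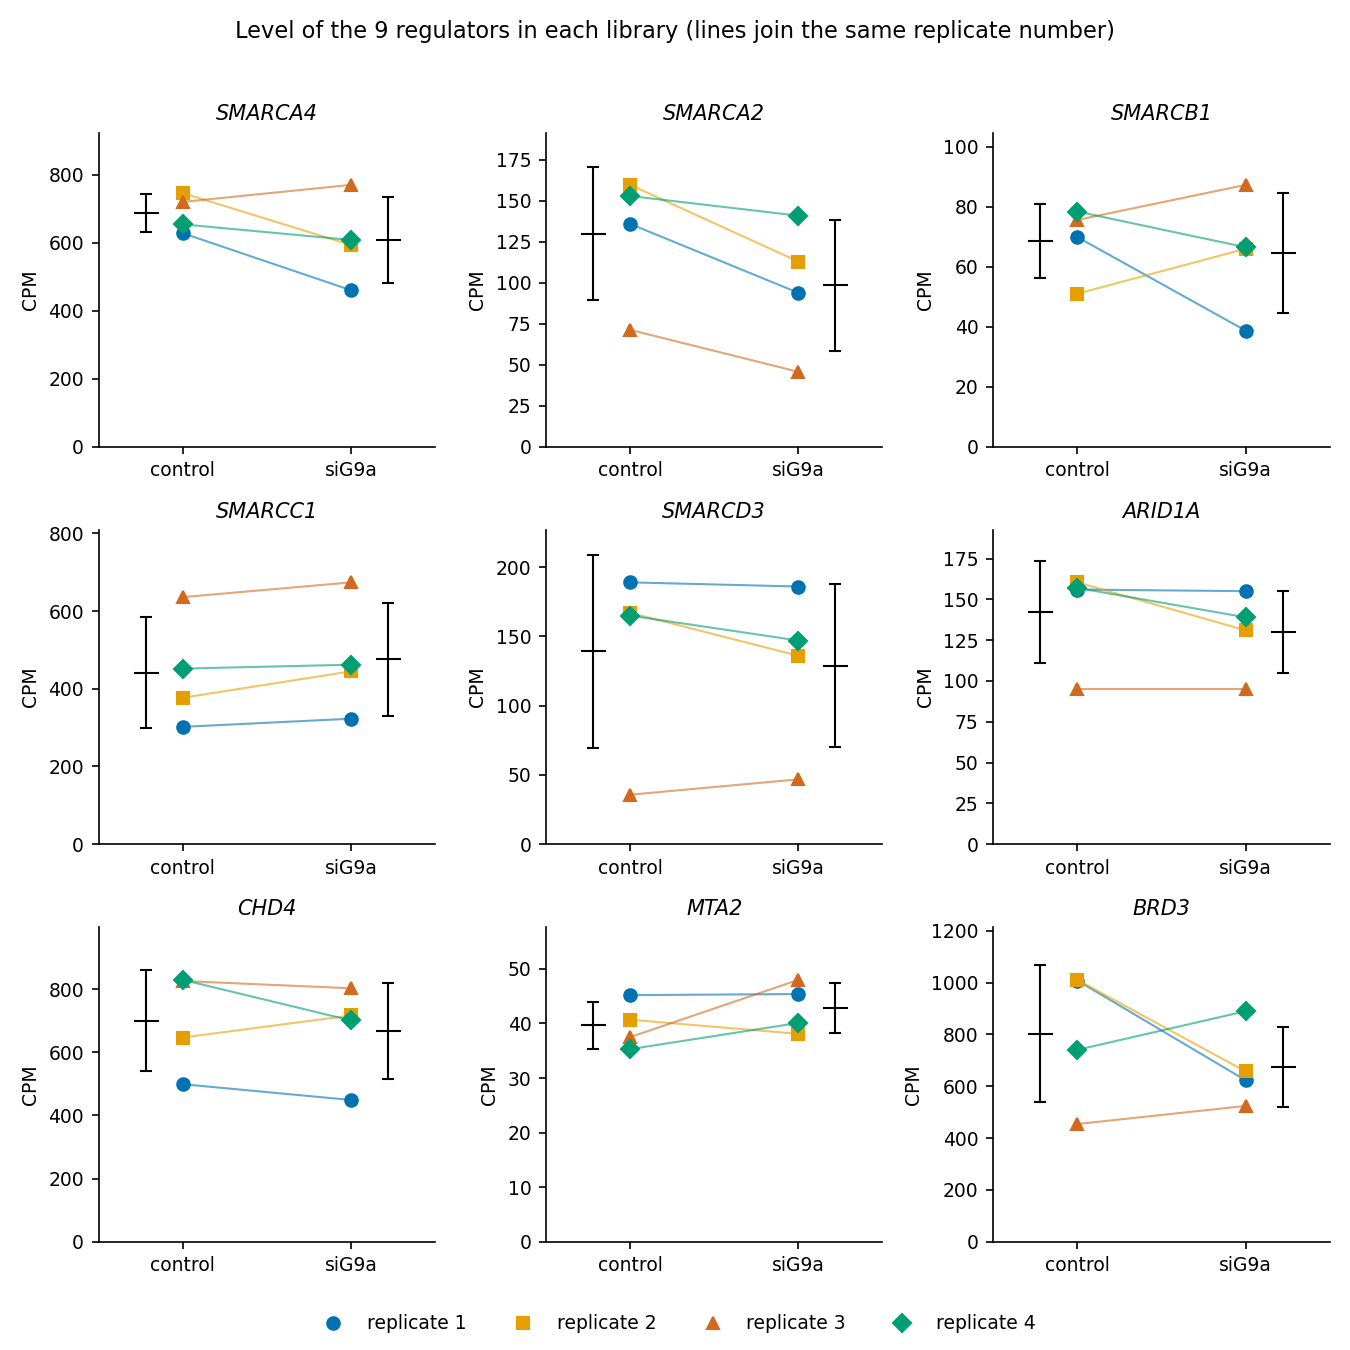
Level of each of the 9 regulators in CPM (vertical axis, from 0, scaled per gene) in the control and siG9a libraries. Points are libraries, lines join the same replicate number, and black bars are the mean ± SD of 4 libraries. The replicate 3 triangles lie lowest in both groups for SMARCA2, SMARCD3, ARID1A and BRD3 and highest for SMARCC1, and the groups overlap for all 9 genes.

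The effect of G9a knockdown was tested with limma on log2(CPM + 1) across 15092 genes. Without the block the fit called 0 genes at an adjusted p of 0.05, 0.00% of those tested, with 1880 at an unadjusted p under 0.05, while edgeR called 0 and DESeq2 291. With the block it called 1717 genes, or 11.4% (733 higher, 984 lower). None of the 9 regulators was called in either fit or by edgeR or DESeq2 with or without the block. Unadjusted p was under 0.05 for 0 of the 9 without the block and for 1, SMARCA2, with it. Of all genes tested, 7.32% had 4 siG9a values that did not overlap the 4 control values, against 0 of the 9. The same direction in 4 of 4 pairs held for 30.2% of all genes and for 2 of the 9. The median log2 change of the 9 was -0.12, with 2 above 0 and 7 below, against 0.01 over all genes tested. The log2 changes ran from -0.44 to 0.11, and the median of their sizes was 0.12, against 0.33 over all genes.

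Among the ATPases, SMARCA2 had the lowest log2 change of the 9. It measured 136, 159.8, 71.3 and 153 CPM in control replicates 1 to 4, and 93.9, 113, 45.7 and 141 CPM in siG9a replicates 1 to 4. Every siG9a library was below the control library of its number, at 69.2, 70.8, 64.0 and 92.0% of it, but the groups overlapped widely. Both replicate 3 libraries were low, and outside them siG9a replicate 4 (141 CPM) was still above control replicate 1 (136 CPM). The means were 129.9 ± 40.3 and 98.3 ± 40.0 CPM (SD, n = 4), a log2 change of -0.44 with a 95% interval of -1.21 to 0.32 (limma adjusted p = 0.659). With the replicate block the interval narrowed to -0.77 to -0.12, with a limma adjusted p of 0.0681, an edgeR adjusted p of 0.0822 and a DESeq2 adjusted p of 0.147. Without the replicate 3 libraries the log2 change was -0.38 (limma adjusted p = 0.239 with the block). Single libraries moved it further, to -0.12 without siG9a replicate 3 and -0.71 without control replicate 3. SMARCA2 passed the threshold under 1 alternative alone, the block with both replicate 4 libraries left out (limma adjusted p = 0.0370).

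SMARCA4, the other ATPase and the more abundant one, measured 628, 746, 720.1 and 654 CPM in control, and 460.1, 593, 770.2 and 608 CPM in siG9a. It was lower in siG9a in pairs 1, 2 and 4 and higher in pair 3, and the groups overlapped. The log2 change was -0.20 (95% interval -0.63 to 0.24, limma adjusted p = 0.745), and -0.29 without replicate 3. Without siG9a replicate 1 it was -0.07, and without siG9a replicate 3 it was -0.32. The interval with all libraries spans 0.65 to 1.18 of the control level.

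Of the core and scaffold subunits, SMARCC1 (BAF155) was higher in siG9a in 4 of 4 pairs, by small steps. Its control libraries held 302, 377, 636 and 452 CPM and its siG9a libraries 323, 445, 674 and 462 CPM. The step within a pair was far smaller than the spread between replicate numbers, and the groups overlapped almost wholly. On the log2 scale the change was 0.11 (95% interval -0.48 to 0.70, limma adjusted p = 0.914), and 0.12 without replicate 3. SMARCB1 (SNF5, the subunit lost in rhabdoid tumours) was detected in all libraries, at 69.9, 51.0, 75.6 and 78.4 CPM in control and 38.7, 66.0, 87.3 and 66.5 CPM in siG9a. It was lower in 2 pairs and higher in 2, with a log2 change of -0.13 (95% interval -0.71 to 0.46, limma adjusted p = 0.899), and -0.24 without replicate 3. Its sign turned to 0.11 when both replicate 1 libraries were left out.

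SMARCD3, the variant linked to muscle, varied most among libraries, 5.30-fold from lowest to highest. It measured 189, 167, 35.7 and 165 CPM in control and 186, 136, 46.8 and 147 CPM in siG9a. Both replicate 3 libraries were far below the others, and outside them the values ran from 136 to 189 CPM. The log2 change was -0.02 with the widest 95% interval of the 9, -1.17 to 1.12 (limma adjusted p = 0.992), and -0.16 without replicate 3. ARID1A, the DNA-binding subunit of canonical BAF, had the same shape at smaller scale, with 156, 160.4, 95.3 and 157 CPM in control and 155, 131, 95.3 and 139 CPM in siG9a. Its replicate 3 values were equal to the printed precision in both groups and lowest in each. On the log2 scale the change was -0.12 (95% interval -0.63 to 0.39, limma adjusted p = 0.893), and -0.16 without replicate 3.

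In NuRD, the ATPase CHD4 measured 499, 647, 826 and 829.7 CPM in control and 449, 717, 803 and 701 CPM in siG9a. Both replicate 1 libraries were lowest, and pairs went down in 3 cases and up in 1. The log2 change was -0.07 (95% interval -0.60 to 0.45, limma adjusted p = 0.942), and -0.08 without replicate 3. MTA2, a scaffold subunit, was the steadiest of the 9, at 45.2, 40.7, 37.5 and 35.3 CPM in control and 45.4, 38.1, 48.0 and 40.1 CPM in siG9a. Its highest value was 1.36 times its lowest, on 61 to 88 reads per library. On the log2 scale the change was 0.11 (95% interval -0.35 to 0.57, limma adjusted p = 0.889), and 0.03 without replicate 3.

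BRD3, the BET member with the most reads, split by pair. It measured 1008, 1010.5, 454 and 740.4 CPM in control and 623, 657, 524 and 889.5 CPM in siG9a. The siG9a libraries held 61.8 and 65.0% of control in pairs 1 and 2 but 115 and 120.1% in pairs 3 and 4. The log2 change was -0.21 (95% interval -0.81 to 0.39, limma adjusted p = 0.815), and -0.35 without replicate 3 (limma adjusted p = 0.316 with the block). It was -0.08 without control replicate 1 or without control replicate 2, -0.10 without siG9a replicate 3, -0.35 without siG9a replicate 4 and -0.46 without control replicate 3. With the block, the limma adjusted p of the 8 regulators other than SMARCA2 ran from 0.406 (SMARCA4) to 0.943 (SMARCD3). A p that misses the threshold does not show that levels were the same: the blocked 95% intervals allow SMARCA4 at 0.72 to 1.06 of control, CHD4 at 0.78 to 1.15, BRD3 at 0.69 to 1.09 and MTA2 at 0.82 to 1.42.

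**Figure D2:**
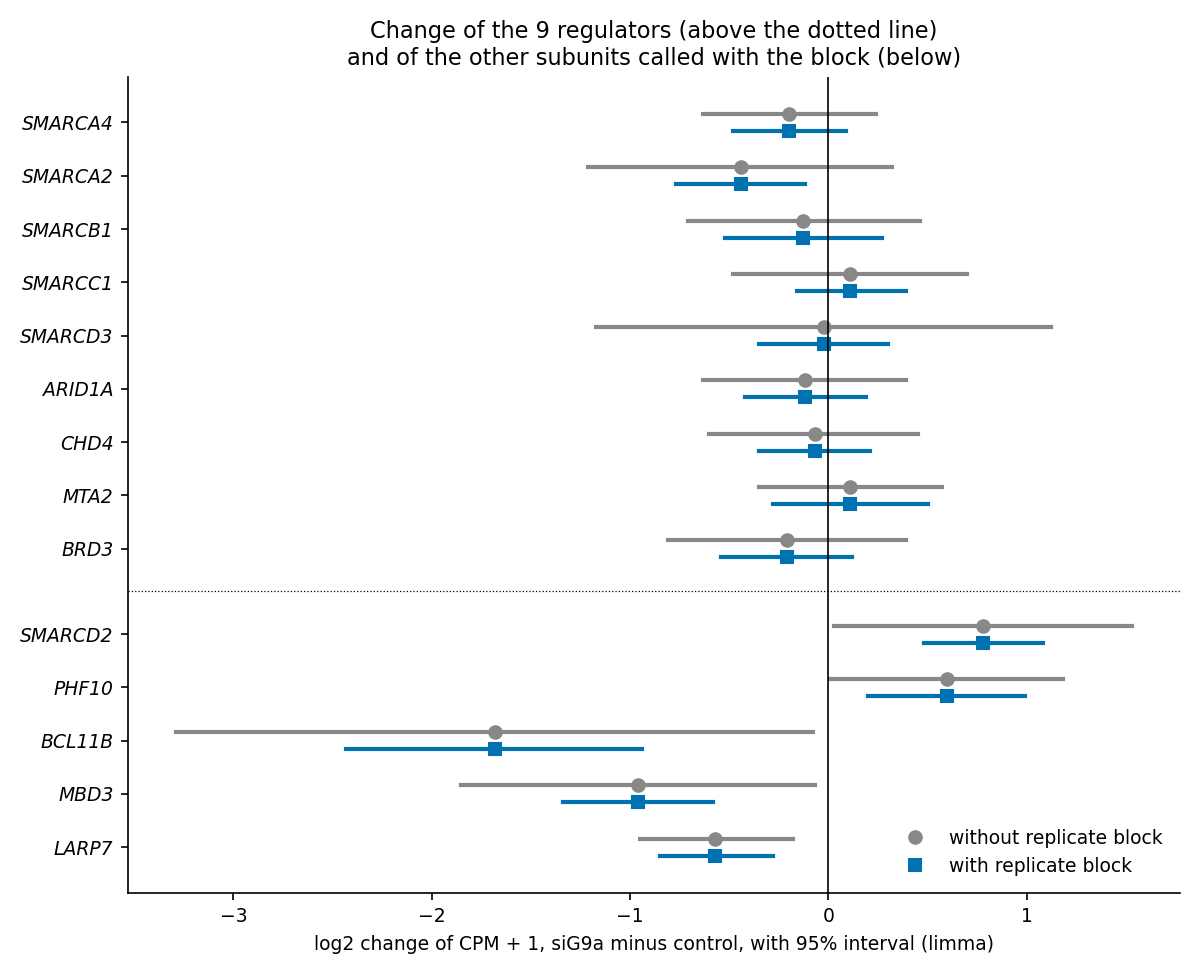
Log2 change of CPM + 1, siG9a minus control (horizontal axis), from limma without the replicate block (grey circles) and with it (blue squares), with 95% intervals not adjusted for the number of genes. Above the dotted line are the 9 regulators, between -0.44 and 0.11; below it are the 5 other subunits called with the block.

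Over the 8 libraries, the variation that did occur among the 9 genes lay mostly between replicate numbers. Of the sum of squares of log2(CPM + 1) over 8 libraries, the replicate number held 97.9% for SMARCD3, 96.9% for SMARCC1, 93.2% for CHD4, 91.5% for ARID1A and 82.7% for SMARCA2. For BRD3, SMARCA4, SMARCB1 and MTA2 it held 49.6 to 61.8%, near the median of 54.6% over all genes tested. The group held 19.6% for SMARCA4, 15.1% for MTA2, 14.6% for SMARCA2 and at most 6.98% for the others, against a median of 12.5%. Without replicate 3 the group held 55.0% for ARID1A, 52.5% for SMARCA2, 49.4% for SMARCA4, 39.1% for BRD3 and 1.53 to 23.0% for the others, against a median of 22.2%. In those 6 libraries the replicate number still held 90.4% for SMARCC1 and 90.8% for CHD4 but 14.9% for ARID1A and 0.407% for BRD3. It held 78.3% for MTA2 and 66.5% for SMARCD3. For SMARCA4, SMARCA2 and SMARCB1 it held 38.9, 35.0 and 33.6%, near the median of 36.7% over all genes tested. The small numbers of libraries, 4 and then 3 per group, limit the precision of these shares.

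For the 4 genes that were low in both replicate 3 libraries, the size of that difference varied. Relative to the mean of the other 3 libraries of its group, replicate 3 differed for SMARCD3 by -2.25 in control and -1.71 in siG9a on the log2 scale. SMARCA2 differed by -1.05 and -1.30, and ARID1A by -0.72 and -0.56. BRD3 stood at 454 CPM in control replicate 3, against 740.4 to 1010.5 CPM in the other control libraries, and differed by -0.45 in siG9a. SMARCC1 went the other way by 0.77 and 0.73. SMARCD3 and SMARCA2 thus passed 1 log2 unit in the same direction in both groups, as did 1948 of 15092 genes (12.9%). Muscle markers were low and the neurofilament markers NEFM and NEFL high in the same 2 libraries, with the values given above. Their part in these differences was not tested. In a bulk library, fewer cells of a type and less RNA per cell cannot be told apart.

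**Figure D3:**
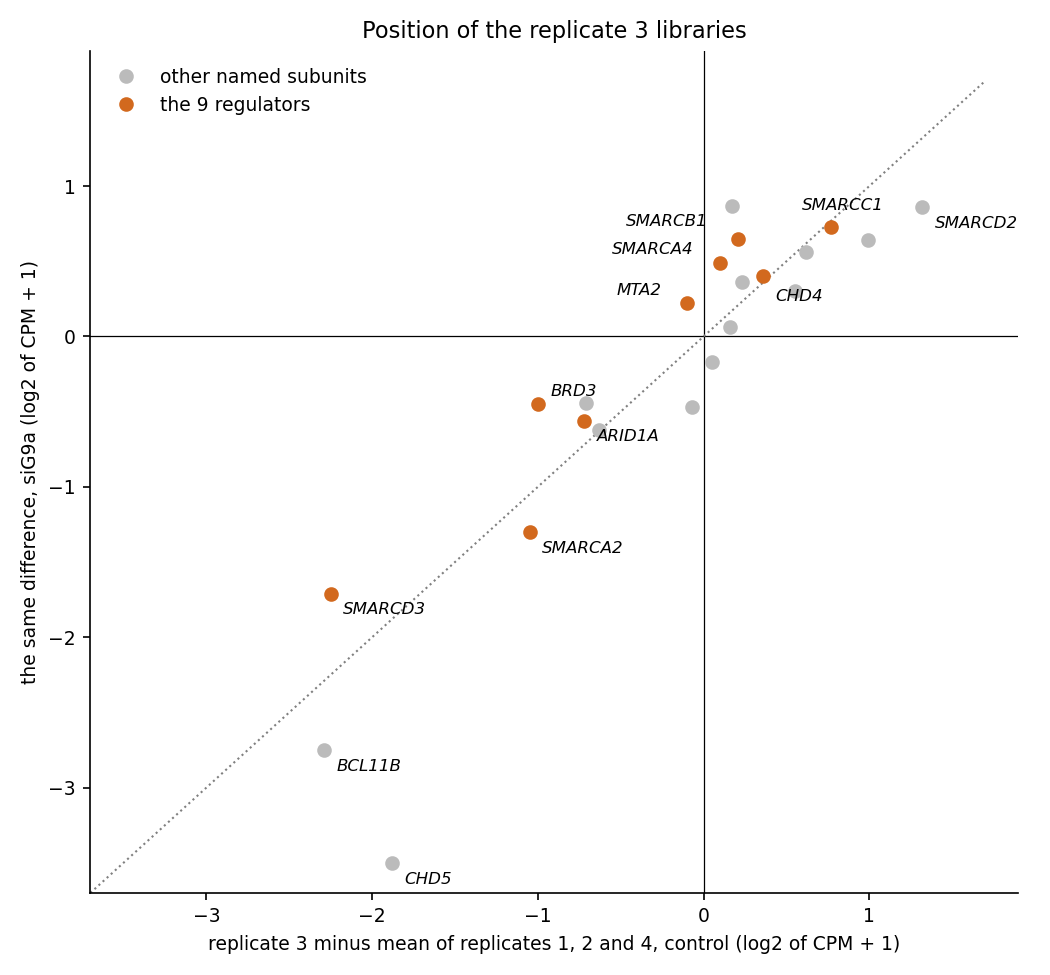
Position of the replicate 3 library relative to the mean of replicates 1, 2 and 4, in log2(CPM + 1), in control (horizontal axis) and siG9a (vertical axis). Orange points are the 9 regulators, grey points other named subunits, and the dotted line marks equal shifts. SMARCD3, SMARCA2, BRD3 and ARID1A lie in the lower left and SMARCC1 in the upper right.

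Over the 8 libraries, SMARCD3, ARID1A, SMARCA2 and BRD3 varied together, as did SMARCA4, SMARCB1, CHD4 and SMARCC1, with MTA2 in neither set. The correlations that follow are descriptions with no p, over libraries that share a group, a replicate number or both. SMARCD3, ARID1A, SMARCA2 and BRD3 were correlated with each other at Pearson r of 0.81 (BRD3 and SMARCD3) to 0.97 (SMARCD3 and ARID1A). The same 4 followed MYOD1 at r of 0.82 for BRD3, 0.86 for SMARCA2, 0.97 for ARID1A and 0.99 for SMARCD3. MYOD1 itself measured 864, 817, 95.3 and 854 CPM in control replicates 1 to 4. SMARCC1 and CHD4 were correlated at 0.86 and followed the neurofilament gene NEFM at 0.95 and 0.93. SMARCC1 ran against SMARCD3 and ARID1A, at r of -0.89 for each.

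Over the 6 libraries without replicate 3, some of these values held and others did not. SMARCC1 and CHD4 stayed at 0.92 with each other and at 0.93 and 0.92 with NEFM, and SMARCD3 and ARID1A stayed at 0.84. MYOD1 was then at 0.71 with SMARCD3 and 0.78 with ARID1A, but at 0.39 with SMARCA2 and 0.50 with BRD3. In the same 6 libraries BRD3 was at 0.23 with SMARCD3 and 0.37 with ARID1A. SMARCA2 was at 0.32 with ARID1A but stayed at 0.76 with BRD3. Among SMARCA4, SMARCB1, CHD4 and SMARCC1, r ran from 0.62 (SMARCA4 and SMARCC1) to 0.86 over all libraries. Without replicate 3 it ran from 0.31 (SMARCA4 and SMARCC1) to 0.92. SMARCA2 and SMARCD3 went from 0.83 to -0.09, so that relation rests on the replicate 3 libraries. Conversely, the ATPases SMARCA2 and SMARCA4 went from -0.23 to 0.94. EHMT2, the targeted gene, went from 0.39 to 0.97 with SMARCA2 and from 0.61 to 0.88 with SMARCA4. In these 6 libraries the group held 52.9% of the sum of squares for EHMT2, 52.5% for SMARCA2 and 49.4% for SMARCA4. The part of the group in these r values was not tested, and r of EHMT2 with all other genes was not computed. MTA2 and CHD4 went from -0.56 to -0.97.

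**Figure D4:**
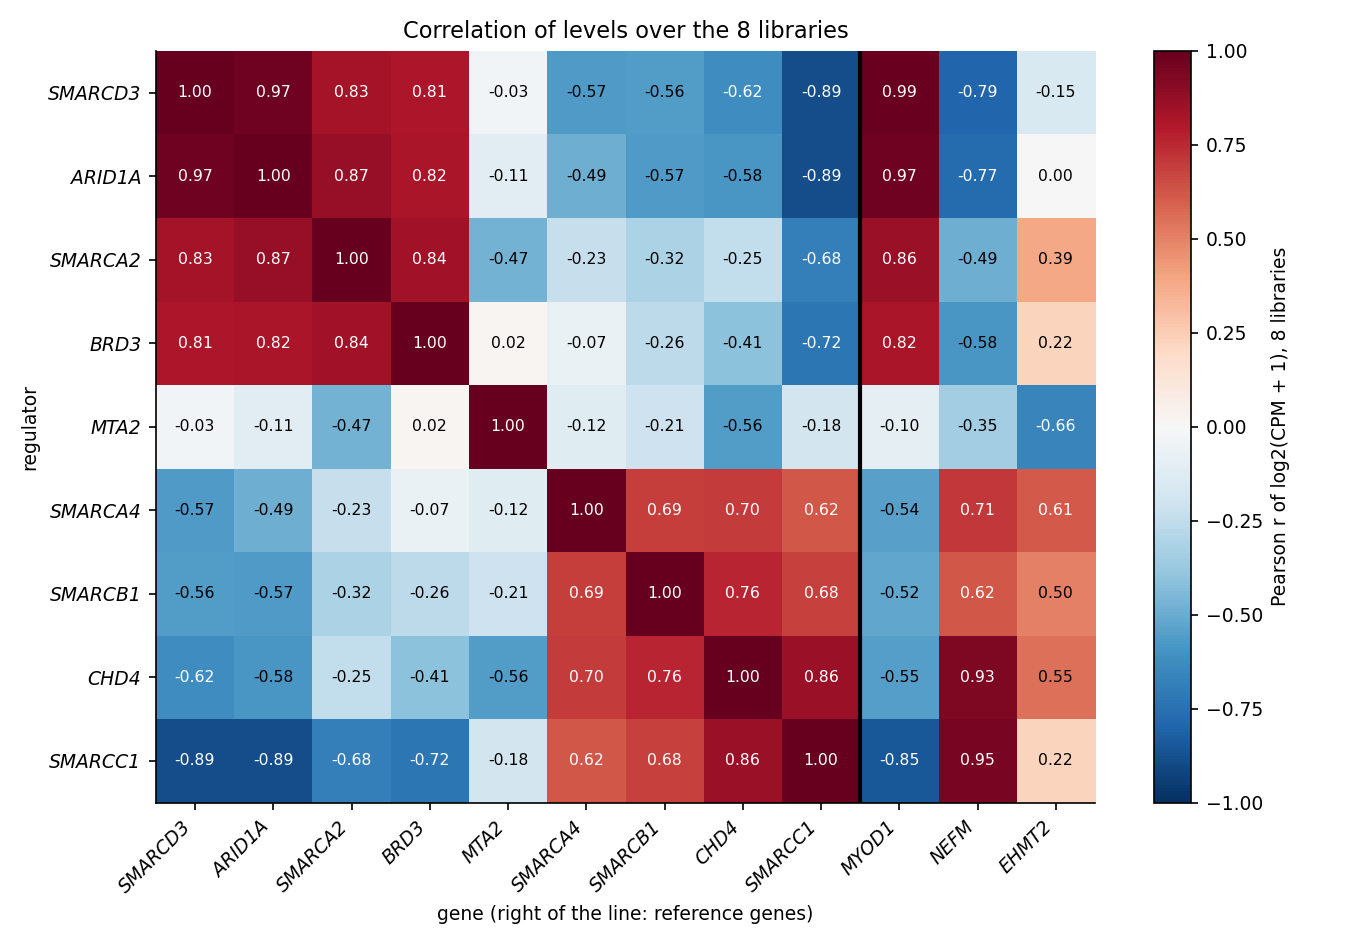
Pearson r of log2(CPM + 1) over all 8 libraries between each regulator (rows) and the regulators and 3 reference genes, MYOD1, NEFM and EHMT2 (columns). Red is positive and blue negative; the red upper left block holds SMARCD3, ARID1A, SMARCA2 and BRD3, and the lower right block SMARCA4, SMARCB1, CHD4 and SMARCC1, while MTA2 stands outside both.

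For each regulator the 2 genes of most similar pattern were found, among genes whose mean reached 10 CPM, by Pearson r over the 8 libraries. For SMARCD3 these were ETV5 (0.995) and MYOD1 (0.993), for ARID1A CELF2 (0.993) and ZIC1 (0.990), for SMARCA2 CLCN4 (0.984) and BOK (0.982), and for BRD3 CENPB (0.974) and CBX5 (0.970). SMARCC1 was nearest to CHCHD7 (0.997) and BRIX1 (0.993), and CHD4 to RBBP5 (0.990) and CTR9 (0.983). SMARCA4 was nearest to ZNF593 (0.976) and ECHS1 (0.960), and SMARCB1 to RBBP6 (0.969) and DPP9 (0.943). MTA2 had the lowest best values, SLC43A2 (0.900) and CELF1 (0.899). Without replicate 3 the r of these 18 pairs lay at 0.83 or above, except for SMARCD3 and MYOD1 at 0.71. These genes were picked as the highest of 8897 candidates on 8 points each.

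The mRNA of alternative BAF and NuRD subunits was then described by the share of a regulator in the summed reads of its paralogues. Library scaling does not touch this measure. These libraries do not measure protein or assembled complexes. None of the 6 shares given here differed between groups by the two-sided exact permutation test (smallest p possible 0.0286; smallest found 0.371, adjusted over the 7 shares computed 0.950). SMARCD3 made up 58.8, 47.7, 8.84 and 47.3% of the reads of SMARCD1, SMARCD2 and SMARCD3 in control, and 43.3, 28.6, 8.80 and 34.8% in siG9a. Its share was lower in 4 of 4 pairs, with siG9a minus control between -19.1 and -0.0432 percentage points. The means were 40.7 ± 21.9 and 28.9 ± 14.7% (SD, n = 4, exact p = 0.371). In pair 3 the difference was within counting error, with 95% intervals on reads of 6.90 to 11.3% in control and 7.14 to 10.8% in siG9a. The mean difference of -11.8 points ran from -5.13 without siG9a replicate 3 to -22.4 without control replicate 3, and was -5.77 without control replicate 1. SMARCD3 was above SMARCD2 in control replicates 1, 2 and 4, and below it in control replicate 3 and in all 4 siG9a libraries. In the replicate 3 libraries SMARCD2 held 343 and 466 CPM against 35.7 and 46.8 CPM of SMARCD3.

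CHD4 made up 56.5, 60.2, 75.6 and 60.6% of the reads of CHD3, CHD4 and CHD5 in control, and 69.6, 64.3, 78.2 and 62.5% in siG9a. The share was higher in 4 of 4 pairs, by 1.83 to 13.1 points, with means of 63.3 ± 8.46 and 68.7 ± 7.08% (exact p = 0.371). The mean difference of 5.40 points was 2.21 without siG9a replicate 3, 3.16 without control replicate 1 and 9.53 without control replicate 3. SMARCA2 was the minor ATPase throughout, with 15.8 ± 4.59% of the SMARCA2 and SMARCA4 reads in control and 14.3 ± 5.93% in siG9a (exact p = 0.543). It was lower in 4 of 4 pairs, with siG9a minus control between -3.41 and -0.172 points. In pair 4 the difference was within counting error, at 18.9 and 18.8% (95% intervals on reads 17.1 to 21.0 and 16.7 to 21.0%). SMARCC1 held 76.7 ± 7.69 and 76.0 ± 9.85% of SMARCC1 and SMARCC2, ARID1A 61.8 ± 11.6 and 61.5 ± 7.61% of ARID1A and ARID1B, and MTA2 21.6 ± 3.54 and 22.5 ± 2.25% of the MTA genes. For the sign over 4 pairs the smallest two-sided exact p is 0.125, so 4 of 4 pairs cannot pass 0.05.

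**Figure D5:**
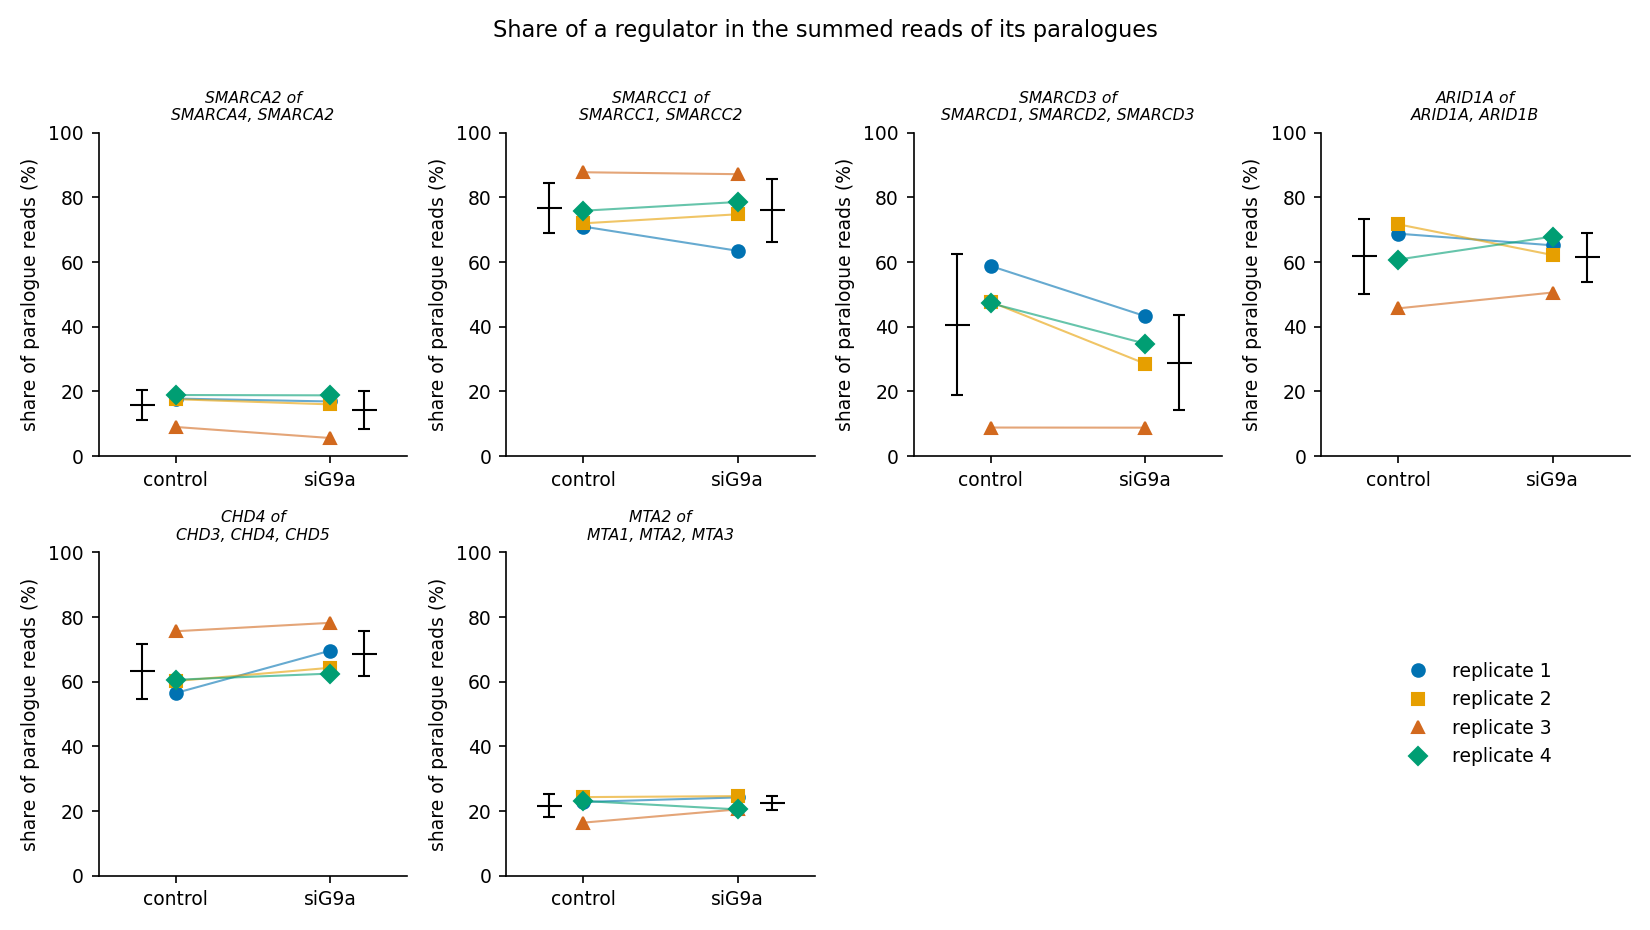
Share of 6 of the regulators in the summed reads of its paralogues, in percent (vertical axis, 0 to 100), in control and siG9a libraries. Points are libraries, lines join the same replicate number and black bars are the mean ± SD of 4 libraries. The siG9a end is the lower one on all 4 SMARCD3 lines and the higher one on all 4 CHD4 lines, and the groups overlap in every panel. The SMARCD3 line of replicate 3 is nearly level, at 8.84 and 8.80%.

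The mRNA levels of other subunits extend the description beyond the 9 genes. Of the 45 genes listed for BAF and NuRD, 44 were tested, and 0 were called without the block. With the block 4 were called, or 9.09%, none of them among the 9, against 11.4% of all genes. The lists were chosen with earlier results of these data known. In BAF, 2 of 29 tested genes rose and 1 fell, and in NuRD 0 of 15 rose and 1 fell. ACTL6B, a neuronal BAF subunit, was at 0 in all libraries, and BRDT, the testis BET protein, was below the floor in all. Of 20 genes of other remodelling families (ISWI, INO80, CHD1 and CHD6 relatives and others) 0 were called, with a median log2 change of 0.04.

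SMARCD2 (BAF60B), the paralogue of SMARCD3, rose with the block. It measured 104, 154, 343 and 161 CPM in control and 209.9, 312, 466 and 255 CPM in siG9a, higher in 4 of 4 pairs. On the log2 scale the change was 0.78 ± 0.15 (SE, with the block; limma adjusted p = 9.11e-04, and 0.382 without the block). SMARCD2 kept its call in all 8 blocked fits. When both replicate 3 libraries were left out, its log2 change was 0.89. It was then called in the unblocked fit too, just under the threshold (limma adjusted p = 0.0491). Its log2 change ran from 0.54 without control replicate 1 to 1.11 without control replicate 3. PHF10, a PBAF subunit, had means of 40.7 ± 6.09 CPM in control against 64.0 ± 18.8 CPM in siG9a, which is 0.60 higher on the log2 scale (limma adjusted p = 0.0420 with the block and 0.395 without). That call was lost in 5 of the 8 fits with a block, among them DESeq2 (adjusted p = 0.111) and limma without the replicate 3 libraries (adjusted p = 0.158).

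BCL11B, a zinc finger transcription factor that is also a BAF subunit, fell from 15.0 ± 8.11 to 4.80 ± 4.28 CPM, a log2 change of -1.68 (limma adjusted p = 0.00305 with the block, 0.378 without). Both replicate 3 libraries were lowest for BCL11B as well, at 3.07 and 0 CPM, and the call was lost without pair 2 (limma adjusted p = 0.0537 with the block). The size depends on the pseudocount, with a log2 change of -2.56 at 0.1 and -1.01 at 5. Leaving out siG9a replicate 3, where it was at 0, brought the log2 change of BCL11B down in size by over 1.5 times, the most of any single library. MBD3, the methyl-CpG-binding-domain subunit of NuRD, fell in 4 of 4 pairs. Its control libraries held 181, 256, 279.8 and 330.2 CPM and its siG9a libraries 45.9, 166, 207 and 186 CPM, so that the groups overlapped only at control replicate 1. The log2 change was -0.96 ± 0.18 (SE, with the block; limma adjusted p = 0.00111, and 0.363 without the block), and MBD3 stayed called in all 8 fits with a block. Without siG9a replicate 1, its lowest library, the log2 change of MBD3 was -0.46.

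Apart from SMARCD2, the paralogues named here were not called. CHD3 was 394 ± 107 CPM in control and 296 ± 108 CPM in siG9a, lower in 4 of 4 pairs (log2 change -0.44, limma adjusted p = 0.0570 with the block). Without siG9a replicate 1 the log2 change of CHD3 was -0.25, and without control replicate 4 it was -0.29. BRD2, ARID1B, SMARCC2, SMARCD1, CHD5, MTA1 and MTA3 had log2 changes from -0.09 to 0.20.

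P-TEFb, the kinase that releases paused RNA polymerase II, is recruited by BET proteins and held inactive by HEXIM proteins with the 7SK RNA-binding protein LARP7. Of 9 genes of this group tested, 1 fell with the block and 0 rose, or 11.1% against 11.4% of all genes, a share near the background. The 1 gene was LARP7, at 248, 256, 296 and 295 CPM in control and 158, 188, 190.1 and 203 CPM in siG9a. Every siG9a value was below every control value, with a log2 change of -0.57 ± 0.14 (SE, with the block; limma adjusted p = 0.00890, and 0.237 without the block). Without the replicate 3 libraries the adjusted p with the block was 0.0641. HEXIM1 and HEXIM2 had log2 changes of 0.71 and 0.94, higher in 4 of 4 pairs but not called (limma adjusted p = 0.0683 and 0.0803 with the block). The same direction in 4 of 4 pairs held for 3 of the 9 genes of this group and for 30.2% of all genes. HEXIM1 went from 18.2 to 85.3 CPM in pair 2, against 78.2 to 85.1, 23.4 to 30.3 and 30.1 to 35.0 CPM in pairs 1, 3 and 4. HEXIM2 was low, at 3.07 to 15.0 CPM. The kinase itself, CDK9, was near the floor, at 2.73 and 4.11 CPM.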

How the data were processed

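QuantSeq 3′ mRNA libraries of 8 Rh41 samples were sequenced single-end. The submitters' processing notes name FastQC 0.11.8, Trim Galore, STAR 2.5.0a, HTSeq 0.8.0 and edgeR 3.28, and both GRCh38 and hg19, without saying how each was used. Annotation and use of strand are not given in the sources used here. The authors deposited CPM to 2 decimals. All non-zero values were whole multiples of 1 read's worth (tolerance 0.005 CPM), so reads were recovered; 1 read was worth 0.516 to 0.685 CPM.

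Groups came from the labels. limma 3.58.1 (R 4.3.3; lmFit, eBayes with trend, two-sided) was run on log2(CPM + 1) for the 15092 genes whose mean reached 1 CPM, adjusted by Benjamini-Hochberg at 0.05. The pseudocount understates changes of low genes. Alternatives were a replicate block, edgeR 4.0.16 and DESeq2 1.42.0 on recovered reads, other pseudocounts, filters and scalings, and libraries left out. Replicate numbers come from the sample titles and are not explained there. Deviations from group means correlated across genes at 0.50, 0.10, 0.67 and 0.13 in pairs 1 to 4 (0.1038 for pair 2), so all were above 0.1 and the numbers were taken to pair libraries. However, control replicate 2 and siG9a replicate 4 correlated best with each other, not with their own numbers, and all results by pair or with the block rest on this pairing. Fits were tested on simulated data first.

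Named genes were the 9 regulators, paralogues, EHMT2, listed subunits called with or without the block, and the 2 nearest patterns per regulator. HEXIM1, HEXIM2, CDK9, MYOD1, NEFM, NEFL, STMN2, TUBB3 and ACTL6B were named after their values were seen. Members and lists were chosen with earlier results of these data known. PECAM1 was not analysed here, and 1 item and the paralogue share that needs it are not reported here.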

Additional observations from a re-analysis of the deposited data

Results flagged for a closer look

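In groups of 4 libraries, a value was singled out where its gap to the nearest other value as a part of the group's range was above Dixon's 95% critical value for 4 values. Of 62 groups tested, 4 had such a value, where chance gives about 3.10, and 3 of the 4 were control replicate 3. SMARCD3 in control replicate 3 was 35.7 CPM, against 165 to 189 CPM in the other control libraries. ARID1A in the same library was 95.3 CPM, against 156 to 160.4 CPM. The share of SMARCA2 in the reads of SMARCA2 and SMARCA4 was 9.01% there, against 17.6 to 18.9%. Outside replicate 3, MTA3, a NuRD scaffold subunit, was 36.1 CPM in siG9a replicate 1, against 22.4 to 24.7 CPM in the other siG9a libraries.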

How the results depend on the processing

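The count of genes called moved most with the replicate block. It was 0 without the block, 1717 with it, and 1711 with edgeR and the block; DESeq2 called 291, and 969 with the block. Testing all genes without a filter gave 18, and median-ratio scaling with the block 1693. Leaving out both replicate 3 libraries gave 413, and 1078 with the block, and leaving out pair 1, 2 or 4 gave 951, 668 and 1393 with the block. Leaving out single libraries gave 0 to 300, with 300 without control replicate 3. Over the alternative values of the 9 log2 changes, 217 kept direction and side of the threshold, 16 changed sign and 1, SMARCA2, passed it. Ranges with 1 library left out that crossed 0 were -0.29 to 0.10 for SMARCB1, -0.07 to 0.30 for SMARCC1, -0.59 to 0.40 for SMARCD3, -0.30 to 0.02 for ARID1A, -0.22 to 0.11 for CHD4, -0.22 to 0.05 for ARID1B, 0.00 to 0.45 for BRD2, -0.41 to 0.95 for CHD5, -0.14 to 0.15 for MTA1, -0.01 to 0.30 for SMARCC2 and -0.20 to 0.06 for SMARCD1. Quantile normalization gave 0.02 for SMARCD3, 0.02 for CHD4 and 0.03 for MTA1. With the block, leaving out pair 1 gave 0.11 for SMARCB1, -0.12 for CHD5, 0.11 for MTA1 and -0.04 for MTA3; pair 2 gave 0.06 for SMARCD3, -0.05 for CHD5 and 0.03 for MTA1; pair 4 gave 0.02 for SMARCD3, 0.09 for ARID1B and -0.01 for CHD5. Without replicate 3, with or without the block, MTA1 was 0.01 and SMARCD1 0.04. A pseudocount of 0.1 gave -0.10 for CHD5. For the paralogue shares, in percentage points, ranges with 1 library left out were -3.78 to 1.40 for SMARCA2, -4.40 to 3.52 for SMARCC1, -22.4 to -5.13 for SMARCD3, 2.21 to 9.53 for CHD4, -5.64 to 3.34 for ARID1A and -0.911 to 1.71 for MTA2, and the MTA2 share was -0.257 without both replicate 3 libraries. The cause of these changes was not tested. MTA2 and the lower genes rest on few reads per library, which limits the precision there.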
